A study of Mus musculus with 6 samples.

Results

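The mitochondrial ribosomal protein genes were chosen by name, as the protein-coding genes whose symbol is Mrpl or Mrps followed by a number, whatever their values. The rule gave 76 of the 12101 genes listed, 47 of them *Mrpl* genes of the large subunit and 29 *Mrps* genes of the small subunit. The listed pseudogene *Mrpl23-ps1* was left out by the rule. Mitochondria have their own ribosome, which makes the core proteins of the respiratory chain that the mitochondrial genome encodes. Its rRNAs are transcribed in the mitochondrion, whereas all its proteins are encoded in the nucleus, made in the cytosol and imported, so that building a mitoribosome needs both genomes. Progenitors of red blood cells use mitochondria for heme and iron-sulfur cluster synthesis as well as for respiration.

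RNA-seq was performed on megakaryocyte-erythroid progenitors (MEPs) sorted from the bone marrow of adult *Nanog* transgenic mice, a strain given as CD-1, from the lineage-negative, Sca1-, cKit+ fraction by CD34 and CD16/32. All the mice carry both the M2-rtTA transactivator in the *Rosa26* locus, which is active in most tissues, and a tetO-*Nanog* cassette at *Col1a1*. Mice of the dox group drank doxycycline (dox) for 5 days, and the untreated group had the same genotype without dox, with 3 libraries in each group. A group given dox without the transgene was not analysed here, so dox itself and *Nanog* cannot be told apart, and tetracyclines are known to inhibit translation on mitochondrial ribosomes. The sources used here do not say whether the libraries of a group came from separate mice, so p-values measure only the spread between these libraries, which may be technical.

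Values are counts of reads (CPM) per 1000000 of a normalized library size. Libraries held from 11264803 to 16153600 reads on listed genes, and a single member had between 44 and 2701 reads in a library. *Nanog* was at 1256, 1460 and 1024 CPM with dox and at 0.739, 0.998 and 0.136 CPM without, as the labels say. Markers of MEPs were all detected (10 of 10 listed), with a summed level of 3172 to 5200 CPM with dox and 4432 to 4773 CPM without. *Car1* gave the most to this sum in every library, at 1280 to 3359 CPM with dox and 2034 to 2506 CPM without. Of these 10 markers 9 had a lower mean with dox (median log2 fold change of the 10 -0.41). Of the 9, 7 were lower without overlap, among them *Klf1* (-0.61), *Epor* (-0.59) and *Gata1* (-0.43). *Itga2b* had a higher mean and the largest change of the list (2.52, without overlap, adjusted p = 0.069, limma). It was at 319, 314 and 66.9 CPM with dox and at 24.1 to 39.3 CPM without. None of the 10 passed the adjusted threshold (a count of 0, limma), and at an unadjusted p under 0.05 there were 5 lower and 1 higher. Over all genes tested, 3.18% were lower and 4.59% higher at an adjusted p under 0.05, 13.6% lower and 15.6% higher at an unadjusted p under 0.05, and 18.2% lower without overlap. The granulocyte-monocyte list was at 558 to 825 CPM with dox and 2579 to 5900 CPM without (12 of 18 tested members lower past that adjusted threshold), and *Ly6g* was not in the test. Lymphocyte markers summed to 18.9 to 27.9 CPM against 37.4 to 61.5 CPM (1 of 5, *Nkg7*, lower at the same threshold), with *Cd3e*, *Cd3g* and *Ms4a1* not in the test. Without *Nkg7* the other 4 summed to 9.24 to 20.2 CPM with dox and 7.73 to 12.6 CPM without, and 3 of the 5 had a higher mean. Mast cell markers summed to 60.9 to 81.7 CPM against 10.9 to 18.9 CPM (2 of 4, *Cpa3* and *Ms4a2*, higher), with *Tpsb2*, *Fcer1a*, *Hdc* and *Cma1* not in the test. The other 2 had lower means, with log2 fold changes of -3.42 for *Gzmb*, without overlap, and -0.93 for *Mcpt8*. The part of these cells in the values below was not tested. In bulk RNA, fewer cells of a type and less RNA per cell cannot be told apart.

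To ask whether dox altered the mitoribosome genes, all 12088 genes that reached 1 CPM in 3 or more libraries were fitted with limma, and all 76 members were among them. Most members had a lower mean with dox, by a small amount and about equally in both subunits. The mean was lower for 72 of 76 members (94.7%), 44 of 47 *Mrpl* and 28 of 29 *Mrps* genes, where 52.7% of all genes tested had a lower mean. The median log2 fold change was -0.26 for the large subunit (range -0.53 to 0.09) and -0.27 for the small subunit (range -0.51 to 0.09), and -0.03 for all genes. No single member was past the threshold of an adjusted p of 0.05 (limma, Benjamini-Hochberg), a count of 0 where 3.18% of all genes were lower and 4.59% higher. The lowest adjusted p of a member was 0.072. At an unadjusted p under 0.05 there were 20 members lower (26.3%) and 0 higher, where 13.6% of all genes were lower and 15.6% higher. These 20 were 12 *Mrpl* and 8 *Mrps* genes. The count did not hold up when single libraries were left out. It was 4 without dox replicate 1 (5.26%, against 8.91% of all genes), 4 without dox replicate 2 (5.26% against 8.58%) and 6 without untreated replicate 2 (7.89% against 9.26%), each a smaller share than over all genes. It was 13 without untreated replicate 1 (17.1% against 10.9%), 9 without untreated replicate 3 (11.8% against 9.16%) and 48 without dox replicate 3 (63.2% against 24.0%). The dox libraries lay below every untreated library, without overlap, for 22 members (28.9%), 12 *Mrpl* and 10 *Mrps* genes, against 18.2% of all genes, and above every untreated library for 0 members against 17.7%.

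These counts depended on the libraries and the scaling. With a mean-variance trend 3 members were called lower (*Mrpl34*, *Mrps2* and *Mrps35*), where 6.18% of all genes were, and with voom precision weights 2 (*Mrpl34* and *Mrps2*), where 4.72% were. With library sizes set to the reads on listed genes, the medians were -0.15 for *Mrpl* and -0.16 for *Mrps* genes and 0.08 for all genes, so that the distance to all genes stayed at -0.23 and -0.24. A lower mean was then found for 65 members, and 11 were lower at an unadjusted p under 0.05 (14.5%, against 9.10% of all genes). The normalized library size of dox replicates 1 and 2 was 1.07 and 1.08 times their reads, and between 0.946 and 0.976 times in the other libraries.

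**Figure D1:**
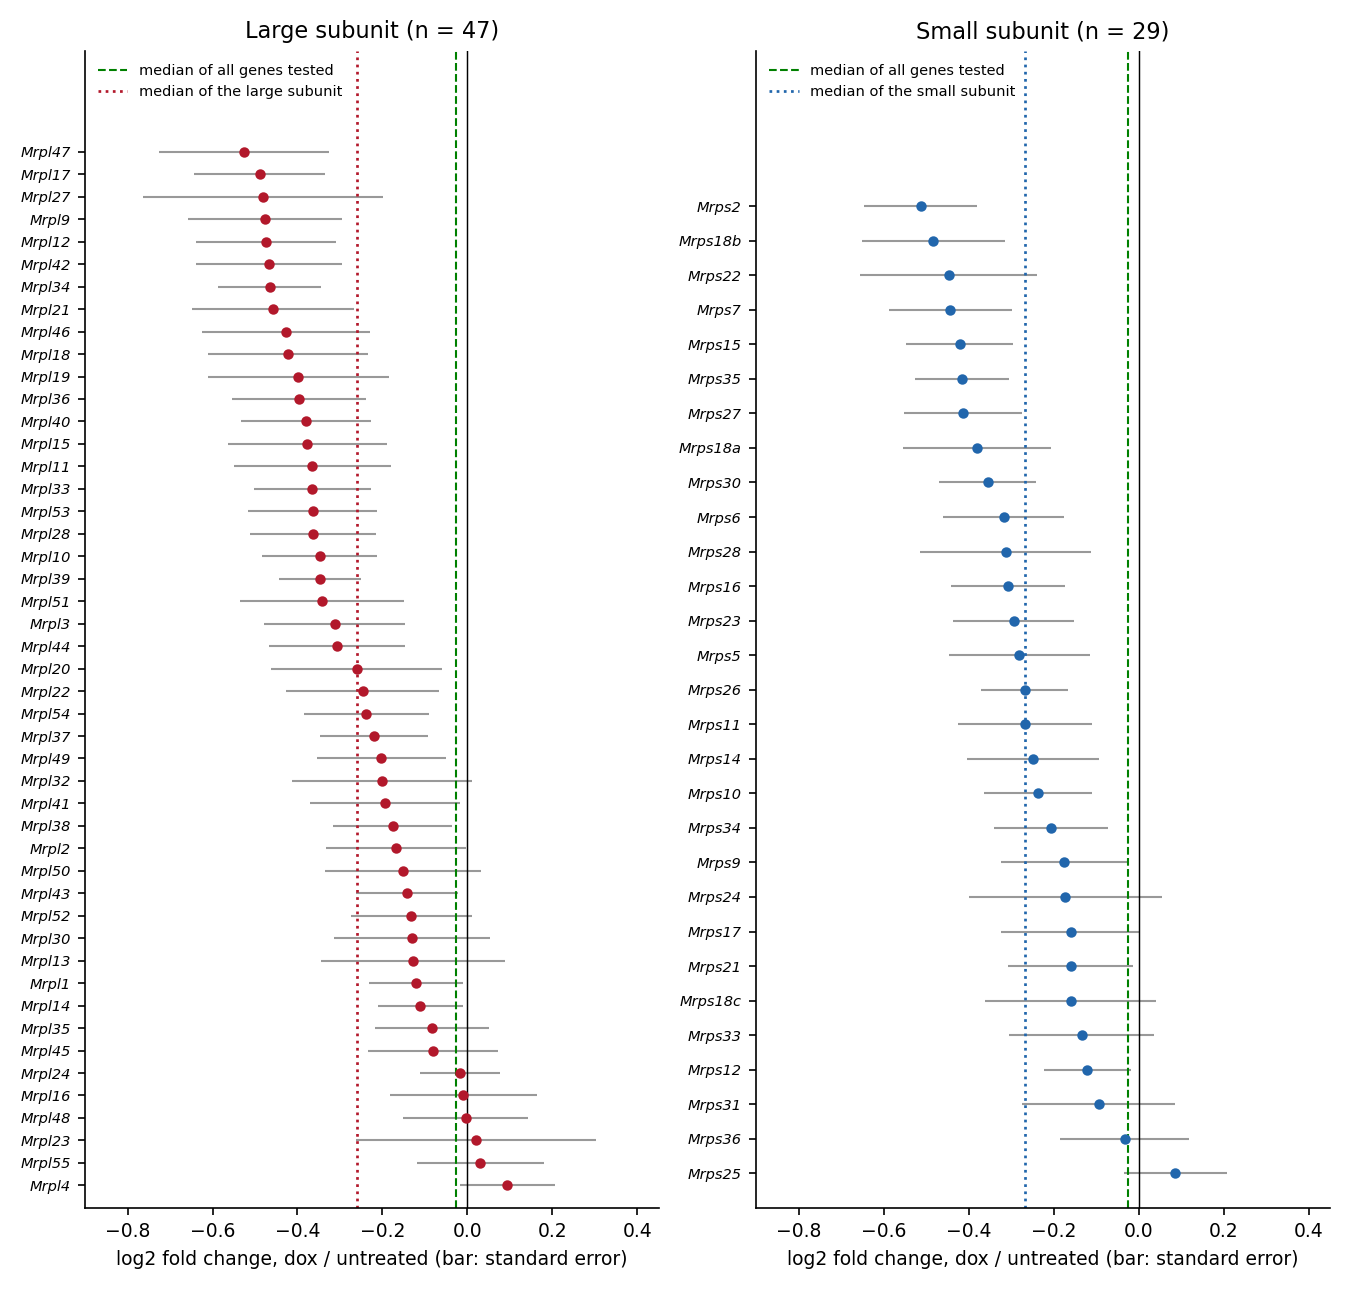
Log2 fold change of each member, dox over untreated, in the large subunit (left) and the small subunit (right), with points for the limma estimate and bars for its standard error. The dotted lines at -0.26 and -0.27 mark the subunit medians and the dashed line at -0.03 the median of all genes tested. Most points of both subunits lie left of the dashed line.

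The balance between the subunits was compared library by library. Summed over the 47 *Mrpl* genes the level was 2359, 2360 and 2956 CPM in dox replicates 1, 2 and 3, and 2975, 3319 and 2904 CPM in untreated replicates 1, 2 and 3. Over the 29 *Mrps* genes it was 1320, 1316 and 1612 CPM with dox and 1647, 1860 and 1596 CPM without. In both subunits dox replicates 1 and 2 were below every untreated library, and dox replicate 3 was within the untreated range. The ratio of the large to the small sum was 1.79, 1.79 and 1.83 with dox and 1.81, 1.78 and 1.82 without. The mean ratio was 1.80 ± 0.0253 after dox and 1.80 ± 0.0177 in untreated MEPs (SD, n = 3 each), so the ratio differed by less than the spread between replicates. The summed level of all members was 4766 ± 362 CPM in untreated MEPs (SD, n = 3) and 3974 ± 515 CPM after dox (SD, n = 3), a ratio of 0.834.

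**Figure D2:**
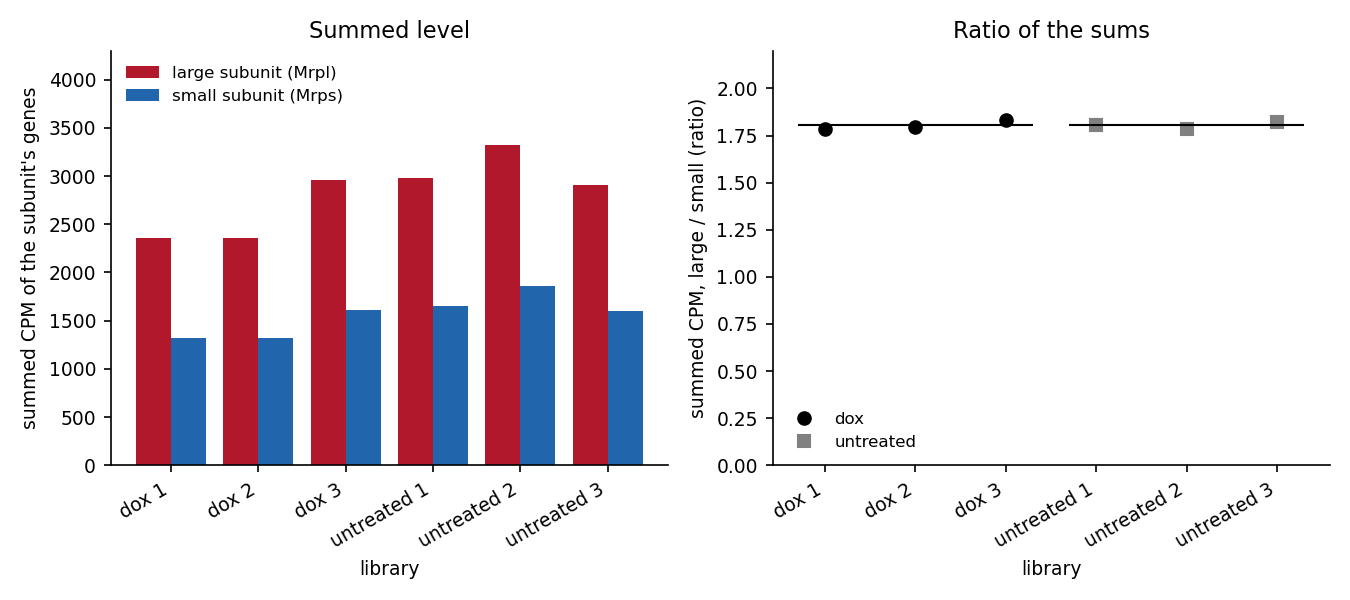
Left, summed CPM of the large and small subunit genes in each library, with bars from 0. Right, the ratio of the 2 sums per library, with horizontal lines at the group means of 1.80; the ratio lies between 1.78 and 1.83 in all 6 libraries.

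Structures place the products of *Mrps18a* and *Mrps30* in the large subunit, and *Mrps36* encodes a component of the 2-oxoglutarate dehydrogenase complex. Counted this way, the large subunit had a median of -0.31 (n = 49) and the small subunit -0.27 (n = 26), and the ratio of the sums was 2.09 ± 0.0119 after dox and 2.09 ± 0.0321 in untreated MEPs (SD, n = 3 each). With the subunits again taken by symbol, *Mrpl* genes listed as having a bacterial counterpart had a median log2 fold change of -0.35 (n = 29). The other *Mrpl* genes had a median of -0.21 (n = 18). Among *Mrps* genes, those so listed (n = 18) and the others (n = 11) both had a median of -0.27. *Mrps18a*, *Mrps30* and *Mrps36* were counted as *Mrps* genes in this split. The stalk proteins *Mrpl10* and *Mrpl12*, where elongation factors dock, had a median of -0.41, and *Mrpl22*, *Mrpl23*, *Mrpl24*, *Mrpl45* and *Mrpl47*, whose 5 proteins lie around the exit site of the tunnel through which the new chain leaves, of -0.08. These are descriptions with no test, because members are not replicates.

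Dox replicate 3 stood apart from the other dox libraries over all genes, at -14.8 on the first principal component where dox replicates 1 and 2 were at -57.5 and -56.4. For 61 of 76 members (80.3%), 37 *Mrpl* and 24 *Mrps* genes, dox replicates 1 and 2 were both below every untreated library, against 35.5% of all genes. Dox replicate 3 was the highest dox library for 61 members as well (80.3%), against 44.0%. Relative to the untreated mean, the members had a median log2 difference of -0.35 in dox replicates 1 and 2 and of -0.05 in dox replicate 3. Dox replicate 3 was below the untreated range for 28 members (36.8%, against 34.3% of all genes), within it for 32 and above it for 16 (21.1%, against 35.3%). Among the untreated libraries, replicate 2 was the highest of all 6 for 53 members (69.7%), against 24.4%.

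**Figure D3:**
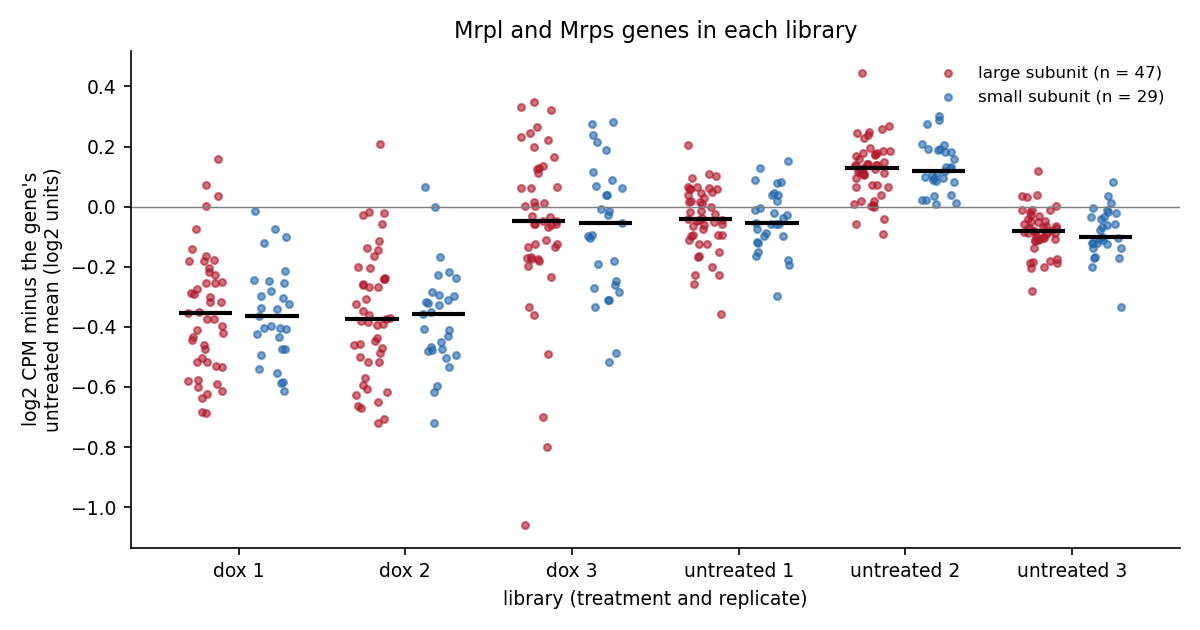
Each member's log2 CPM minus its untreated mean, in each library, for the large subunit (red) and the small subunit (blue), with black lines at the medians. Dox 1 and dox 2 lie mostly under 0, and dox 3 spreads around 0 and reaches further down than any other library.

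Without dox replicate 3, 29 members were lower past the adjusted threshold (38.2%; 19 *Mrpl*, 10 *Mrps*), where 14.0% of all genes were, and the medians were -0.34 and -0.36. Without any other single library the count was 0. Summed over the proliferation list (8 genes, among them *Mki67* and *Top2a*), dox replicates 1 and 2 were likewise the lowest and dox replicate 3 within the untreated range, at 2940, 2872 and 4450 CPM against 4440, 4455 and 4043 CPM. Its part in the result was not tested.

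Among large subunit genes, *Mrpl47*, whose protein sits at the exit site, had the lowest log2 fold change (chr3:32624319-32636069 of NCBIM37). It was at 26.5, 25.9 and 38.0 CPM with dox and 39.5, 50.7 and 38.8 CPM without. The groups did not overlap, and the log2 fold change of -0.53 (standard error 0.20) had an adjusted p of 0.148 (limma). *Mrpl12*, the stalk protein and the member with the highest mean CPM (chr11:120345927-120350379), was at 119, 115 and 160 CPM with dox and 173, 200 and 170 CPM without. Dox replicate 3 was closest to the untreated libraries. The log2 fold change was -0.47 with a standard error of 0.16, and limma gave an adjusted p of 0.125. *Mrpl17*, a gene conserved from bacteria, was at 44.4, 44.3 and 57.8 CPM against 65.0, 76.7 and 63.1 CPM, again without overlap and with the same order of dox libraries. The estimate was -0.49 on the log2 scale, with a standard error of 0.15 and an adjusted p of 0.103 by limma. For these 3 genes a two-sided exact permutation test gave p = 0.1, the smallest that 3 libraries against 3 allow.

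*Mrpl18* (log2 fold change -0.42), *Mrpl53* (-0.36), *Mrpl51* (-0.34) and *Mrpl37* (-0.22) also had lower means, with overlap between the groups. *Mrpl39*, a member chosen for description after its values were seen, was at 36.5, 40.3 and 37.8 CPM with dox and at 49.2, 48.8 and 47.6 CPM without. Here dox replicate 3 lay between the other dox libraries, all of them below the untreated ones, and the log2 fold change of -0.35 had an adjusted p of 0.080 (limma).

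In 8 members dox replicate 3 was instead the lowest of all 6 libraries (10.5%, against 20.1% of all genes). The widest case was *Mrpl27*, whose protein lies near the peptidyl transferase centre, at 28.7, 26.8 and 15.2 CPM with dox and 26.5, 38.1 and 31.4 CPM without. Its log2 fold change of -0.48 had a standard error of 0.28, and only dox replicate 3 was below the untreated range. *Mrpl9* was at 79.6, 73.0 and 54.3 CPM with dox and 86.8, 108 and 90.1 CPM without, with all dox libraries below the untreated ones. Its log2 fold change of -0.48 had an adjusted p of 0.15 (limma). The others were *Mrpl19*, *Mrpl10*, *Mrpl24*, *Mrps7*, *Mrps18a* and *Mrps34*.

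**Figure D4:**
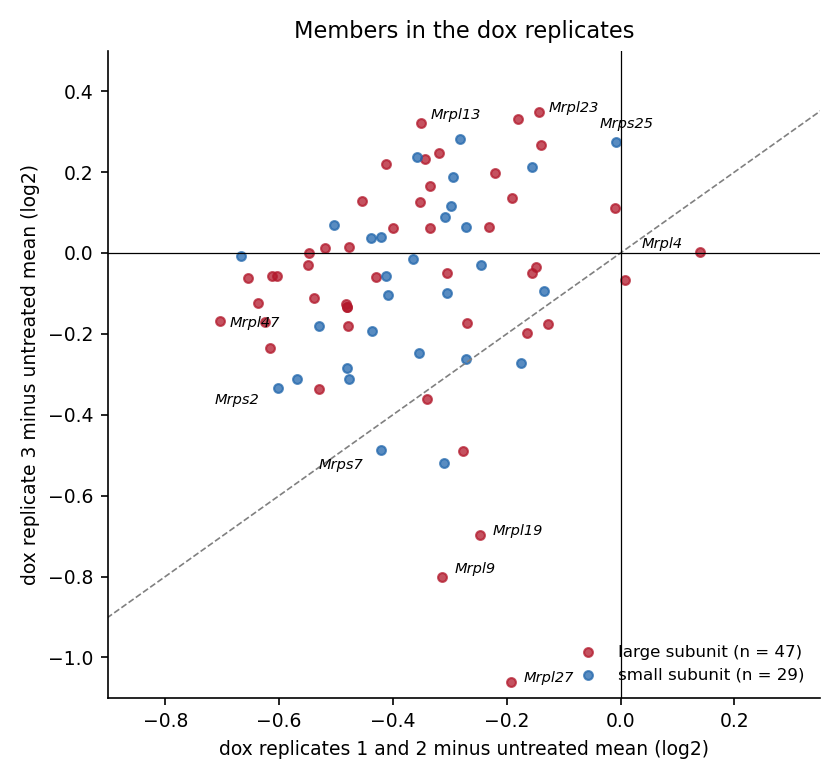
Each member's log2 difference from the untreated mean in dox replicates 1 and 2 (mean, horizontal axis) and in dox replicate 3 (vertical axis); the dashed line marks equal values. Most members lie above the line, and *Mrpl27*, *Mrpl9* and *Mrpl19* lie furthest below it.

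At the other end of the large subunit, *Mrpl4*, whose protein reaches into the tunnel further inside and which is not among those 5, was at 56.8, 62.5 and 54.2 CPM with dox and 52.7, 58.3 and 51.4 CPM without, with overlapping groups (log2 fold change 0.09, standard error 0.11). *Mrpl55* (0.03), *Mrpl23* (0.02) and *Mrpl48* (-0.00) were near 0, and their signs changed under other settings. *Mrpl23* was the member with fewest reads, at 3.61 to 6.69 CPM over the 6 libraries.

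In the small subunit, *Mrps2* had the lowest log2 fold change and the lowest adjusted p of all members (chr2:28323586-28326698 of NCBIM37). It was at 51.9, 50.8 and 61.9 CPM with dox and 71.9, 86.9 and 75.8 CPM without. Every dox library was below every untreated one. The log2 fold change of -0.51 had a standard error of 0.13 and an adjusted p of 0.072 (limma). *Mrps18b*, 1 of 3 mammalian versions of bacterial S18, was at 54.0, 52.0 and 63.4 CPM against 69.5, 96.9 and 72.2 CPM. Untreated replicate 2 was far above the rest, and the log2 fold change of -0.48 (standard error 0.17) had an adjusted p of 0.125 (limma). *Mrps7*, a protein of the head of the subunit, was at 61.2, 62.4 and 59.0 CPM with dox and 74.5, 100 and 76.0 CPM without. The dox libraries were close together and below the untreated ones. The log2 fold change of -0.44 had an adjusted p of 0.111 (limma).

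*Mrps22*, found in mitochondria alone, was at 34.6, 32.2 and 52.7 CPM with dox and 53.7, 57.0 and 48.7 CPM without, with dox replicate 3 inside the untreated range (log2 fold change -0.45). *Mrps6* (-0.32) and *Mrps5* (-0.28) had lower means as well. *Mrps12*, a protein of the decoding centre, varied little, at 35.1, 33.5 and 35.3 CPM with dox and 35.2, 40.3 and 37.5 CPM without (log2 fold change -0.12). *Mrps31* (-0.09) and *Mrps36* (-0.03) were near 0. The only *Mrps* gene with a higher mean was *Mrps25*, at 74.6, 75.2 and 91.0 CPM with dox and 77.3, 77.3 and 71.3 CPM without, and the higher mean rests on dox replicate 3 (log2 fold change 0.09, and -0.0074 without that library).

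Levels were compared between genes per kilobase of annotated transcript, in the untreated libraries. The median level was 52.0 CPM per kilobase for *Mrpl* genes (range 7.29 to 212) and 49.3 CPM per kilobase for *Mrps* genes (range 12.4 to 139). *Mrpl52* had the highest level, at 212 ± 24.5 CPM per kilobase (SD, n = 3), followed by *Mrpl42* at 151 ± 8.75, *Mrps21* at 139 ± 13.7 and *Mrpl12* at 137 ± 12.6. *Mrpl42*, *Mrps21* and *Mrpl12* each differed from their neighbour among these 3 by less than the larger SD of the pair. The lowest were *Mrpl23* at 7.29 ± 2.07 and *Mrpl1* at 10.7 ± 0.589 CPM per kilobase.

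Exons of 26 members share annotated bases with another gene, 22 with one on the opposite strand and 6 with one on the same strand. The use of strand in counting is not given in the sources used here, so their reads are uncertain. The largest shares of exon bases were those of *Mrpl53* with *Ccdc142* (87.1%), *Mrps34* with *Mapk8ip3* (63.4%) and *Mrps25* with *Nr2c2* (53.7%). The 50 members that share none had a median log2 fold change of -0.24 and the 26 that do -0.33. *Mrpl46* of the large subunit and *Mrps11* of the small subunit lie head to head on chromosome 7 of NCBIM37, at chr7:85920122-85928417 on the minus strand and chr7:85928005-85937875 on the plus strand, and share 173 exon bases.

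Promoter windows were available from RefSeq (GRCm38.p6) for 67 members, 73 windows of 300 bases from 250 before to 50 after the start. Both strands were searched for the letters CCGGAAG, the core bound by ETS factors such as GABP, CGCANGCGC, bound by NRF1, and AAGATGG, bound by YY1, 3 factors known for nuclear genes of mitochondria. The ETS core was in 32.9% of member windows, against 17.9% of the windows of genes tested and 8.86% of all RefSeq windows. The NRF1 letters were in 23.3%, against 13.6% and 6.31%, and the YY1 letters in 17.8%, against 7.08% and 6.34%. *Mrpl* windows held them in 28.3%, 26.1% and 15.2% and *Mrps* windows in 40.7%, 18.5% and 22.2%, in the same order. The median GC content was 58.3% in member windows and 60.7% in those of genes tested. A match of letters is a description and no site of binding. The windows below were chosen after the values were seen, as a low-fold-change gene of each subunit with matches, the small subunit gene of the head-to-head pair, and the small subunit gene with the highest fold change. The genes with the lowest log2 fold change of each subunit, *Mrpl47* (-0.53) and *Mrps2* (-0.51), had no match in their windows, which are not printed. A relation between matches and fold change was not tested. Capitals mark the matches. *Mrpl17* (chr7:105811038-105811337, minus strand) has 1 ETS and 2 NRF1 matches, *Mrps18b* (chr17:35916391-35916690, minus strand) 1 ETS and 1 NRF1 match, *Mrps11* (chr7:78782881-78783180, plus strand) 1 YY1 match, and *Mrps25* (chr6:92183974-92184273, minus strand) none.
Mrpl17: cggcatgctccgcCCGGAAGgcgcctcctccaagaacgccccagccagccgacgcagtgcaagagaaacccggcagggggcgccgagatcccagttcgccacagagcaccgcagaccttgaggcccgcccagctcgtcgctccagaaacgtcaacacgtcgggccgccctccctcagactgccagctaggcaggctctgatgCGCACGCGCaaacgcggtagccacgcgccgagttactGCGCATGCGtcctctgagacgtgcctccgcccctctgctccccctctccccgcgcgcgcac
Mrps18b: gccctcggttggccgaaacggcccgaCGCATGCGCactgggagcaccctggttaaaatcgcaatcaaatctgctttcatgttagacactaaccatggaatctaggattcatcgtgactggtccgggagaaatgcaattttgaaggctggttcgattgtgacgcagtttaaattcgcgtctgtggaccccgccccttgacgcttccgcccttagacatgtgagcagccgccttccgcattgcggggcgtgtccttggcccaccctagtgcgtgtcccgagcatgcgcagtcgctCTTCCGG
Mrps11: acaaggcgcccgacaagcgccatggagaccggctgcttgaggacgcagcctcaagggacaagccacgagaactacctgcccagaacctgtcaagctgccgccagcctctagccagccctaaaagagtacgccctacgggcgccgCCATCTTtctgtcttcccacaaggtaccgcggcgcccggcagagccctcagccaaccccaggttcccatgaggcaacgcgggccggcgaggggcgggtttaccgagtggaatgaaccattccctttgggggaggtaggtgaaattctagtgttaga
Mrps25: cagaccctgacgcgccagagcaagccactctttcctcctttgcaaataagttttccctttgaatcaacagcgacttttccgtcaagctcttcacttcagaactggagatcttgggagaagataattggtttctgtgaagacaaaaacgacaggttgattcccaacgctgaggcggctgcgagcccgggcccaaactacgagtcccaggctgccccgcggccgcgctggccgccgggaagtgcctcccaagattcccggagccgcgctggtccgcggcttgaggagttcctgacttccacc

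The *Mrps11* window shares 141 bases with that of *Mrpl46*, on the opposite strand. Their log2 fold changes were -0.27 (standard error 0.16) and -0.43 (standard error 0.20), and neither passed the test.

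The rest of the mitochondrial translation pathway was read from gene lists in the same fit, where 13.6% of all genes tested were lower and 15.6% higher at an unadjusted p under 0.05, and 3.18% were lower at the adjusted threshold. Of 7 other mitoribosomal proteins tested, 0 passed the adjusted threshold (limma) and 2 were lower at an unadjusted p under 0.05, with a median log2 fold change of -0.18 and the lowest p for *Ptcd3* (-0.48, adjusted p = 0.134, limma). Of 14 translation factors 0 passed and 3 were lower at an unadjusted p under 0.05 (median -0.22). The lowest p was that of *Tufm*, the elongation factor that brings tRNA to the mitoribosome, at 149, 149 and 159 CPM with dox and 193, 230 and 198 CPM without. Its groups were apart, and its log2 fold change of -0.44 (standard error 0.11) had an adjusted p of 0.070 (limma). Of 22 aminoacyl-tRNA synthetase and amidotransferase genes 0 passed and 4 were lower at an unadjusted p under 0.05 (median -0.22), with *Nars2* at -0.56 (adjusted p = 0.083, limma).

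Of 25 assembly and rRNA modification genes 0 passed, and at an unadjusted p under 0.05 there were 5 lower and 1 higher (median -0.15). The gene with the lowest p was *Mterfd3*, with a higher mean (log2 fold change 0.64, adjusted p = 0.061, limma). Of 13 genes of mitochondrial transcription and RNA handling 0 passed and 4 were lower at an unadjusted p under 0.05 (median -0.31), with *Supv3l1*, an RNA helicase, at -0.43. Of 8 regulators 0 passed and 4 were lower at an unadjusted p under 0.05 (median -0.20), among them *Myc* at -0.38 (adjusted p = 0.089, limma).

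The mitoribosome's rRNA genes *mt-Rnr2* and *mt-Rnr1* had log2 fold changes of -0.78 (adjusted p = 0.089, limma) and -0.43 (adjusted p = 0.22, limma). Over the libraries they were at only 130 to 333 and 103 to 203 CPM, where the mRNA of *mt-Co1* was at 7714 to 15421 CPM. How far library preparation removed rRNA was not tested, so these values may not measure the rRNA level. Of the mitochondrial genome's own 13 protein genes, whose mRNAs the mitoribosome translates, all 13 were lower without overlap, and 9 of them passed the adjusted threshold. The smallest p-values were those of *mt-Nd4* (-0.75, adjusted p = 0.023, limma), *mt-Nd2* (-0.69) and *mt-Nd4l* (-0.75), which shares its mRNA with *mt-Nd4*, and the largest fall was that of *mt-Nd1* (-0.90, adjusted p = 0.039, limma). Of 83 nuclear respiratory chain genes 0 passed (limma), and 9 were lower and 1 higher at an unadjusted p under 0.05, a smaller share than over all genes in either direction. Their median was -0.24, 74 of 83 had a lower mean (89.2%, against 52.7% of all genes) and 22 were lower without overlap (26.5%, against 18.2%). Both of these shares were close in size to those of the members. The share lower at an unadjusted p under 0.05 was not, at 10.8% where it was 26.3% of the members. For comparison, 80 cytosolic ribosomal protein genes had a median of 0.02, with 1 lower past the threshold. That gene, *Rps19bp1* (-0.52, adjusted p = 0.037, limma), entered the list by its name and encodes a protein that binds a ribosomal protein. In dox replicates 1 and 2 the medians relative to the untreated mean were -0.35 for the nuclear respiratory chain and -0.11 for cytosolic ribosomal proteins, and in dox replicate 3 they were 0.06 and 0.27.

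**Figure D5:**
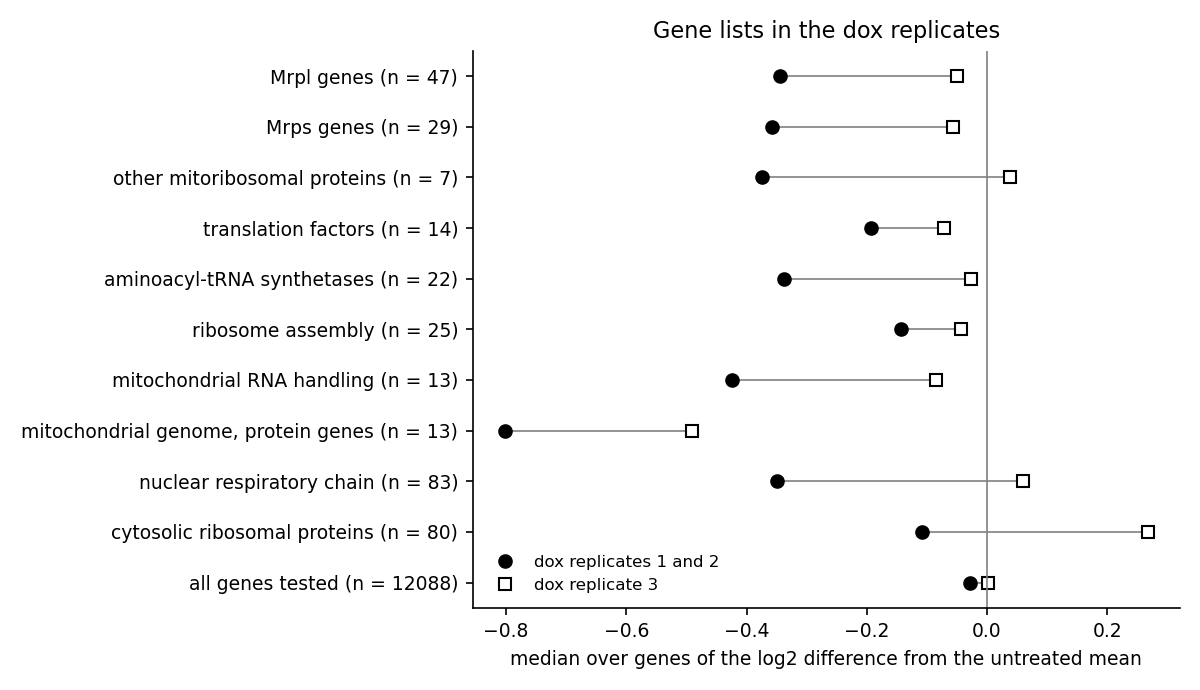
Median log2 difference from the untreated mean over the genes of each list, in dox replicates 1 and 2 (filled circles) and in dox replicate 3 (open squares). The square lies right of the circle for every list drawn, and for all genes tested both are near 0.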

How the data were processed

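RNA-seq libraries of sorted MEPs were compared, 3 per group. The authors trimmed reads with Cutadapt, quantified them with RSEM on NCBIM37 transcripts and normalized them with limma. The deposited values are log2 CPM after adding 0.5 reads, so fold changes of thinly covered genes are understated. Whole reads were recovered from them, for depth, levels and voom weights. Standard errors come from limma and hold the spread between libraries. All columns matched a sample (0 did not).

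Gene names and positions came from GENCODE M1 on NCBIM37 (12067 of 12101 genes). Deposited log2 values of 12088 genes with at least 1 CPM in 3 libraries were fitted with limma 3.58.1 (R 4.3.3), lmFit and eBayes, without a block, with Benjamini-Hochberg adjustment at 0.05. A two-sided exact permutation test was run per member. On simulated reads for dox against untreated (12088 genes, 200 changed), 93.8% of 2-fold and 100% of 4-fold changes were recovered and 6.25% of calls were false. That simulation used a dispersion of 0.016 and changes of 2-fold and 4-fold alone. The largest member change was -0.53 on the log2 scale, so recovery of changes as small as those of the members was not simulated. Python 3.11.15 was used for tables (pandas 2.3.3 with numpy 2.4.6) and figures (matplotlib 3.10.9).

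The members and lists were chosen with earlier results of these data known. Members named were, per subunit, the 4 highest and 4 lowest log2 fold changes, the 3 highest and 2 lowest mean CPM, and over both subunits together the 4 widest ranges over the dox libraries, and for each list the genes with the smallest p. Other genes named were chosen after their values were seen. The cytosolic list takes every protein-coding Rpl or Rps name followed by a number, so it also holds genes that are not ribosomal proteins. Alternatives changed the pseudocount, filter, variance model, weights, scaling, block and libraries. Counts without overlap and at an unadjusted p under other settings were added after seeing the data. Protein sequences were not used here.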

Additional observations from a re-analysis of the deposited data

How the results depend on the processing

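The number of members past the adjusted threshold was 0 in the fit as reported, 3 with a mean-variance trend, 2 with voom precision weights, and between 0 and 29 when single libraries were left out, 29 without dox replicate 3. The number over all genes, 939 as reported, was 1656 with the trend and between 135 and 3488 when single libraries were left out. Members lower without overlap were 22, and between 22 and 61 on leaving out a library, 61 without dox replicate 3 (80.3%, against 35.5% of all genes) and 35 without untreated replicate 3 (46.1%, against 22.6%). The cause was not tested. The subunit medians stayed below 0 under every alternative run.

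Replicate numbers are shared by the groups, but the labels do not say that equal numbers mark a shared mouse or day. Deviations of same-numbered libraries correlated across genes at 0.0184, -0.121 and -0.299, so the numbers were not taken as pairs. With the replicate block 82 genes and 0 members were called (lowest adjusted p of a member 0.208, limma), 4 members were lower at an unadjusted p under 0.05 (5.26%, against 8.17% of all genes), and with the block and voom weights 926 genes and 0 members.

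Of 23 members named by the rule, 17 kept their direction under all alternatives and 6 did not. With library sizes of reads on listed genes, *Mrpl48* was at 0.11, *Mrps31* at 0.017 and *Mrps36* at 0.077 on the log2 scale. After quantile normalization *Mrpl48* was at 0.0012, *Mrpl23* at -0.30 and *Mrpl55* at -0.039. On leaving out a library, values lay between -0.14 and 0.096 for *Mrpl48*, -0.14 and 0.25 for *Mrpl23*, -0.084 and 0.16 for *Mrpl55*, -0.28 and 0.017 for *Mrps31*, -0.16 and 0.069 for *Mrps36*, and -0.0074 and 0.14 for *Mrps25*. The median standard error of a member was 0.154 on the log2 scale, beside a median difference of -0.27.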
